A study of Mus musculus with 2 samples.

Results

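Gfap-low astrocytes of the injured mouse spinal cord were described here as nuclei that carried RNA of astrocyte genes but little of Gfap, the intermediate filament gene used as the common marker of fibrous and reactive astrocytes. A nucleus was a member when it had at least 5 unique molecular identifiers (UMIs, each standing for 1 captured RNA molecule) summed over Aqp4, Slc4a4, Slc1a2, Gja1 and Agt, and fewer than 10 Gfap UMIs per 10000 of its UMIs. It could have at most 5 UMIs of the neuronal genes Snhg11, Rbfox3 and Syt1, at most 3 of the oligodendrocyte genes Mog, St18 and Prr5l, and at most 5 of the ependymal genes Dnah12, Spag17 and Hydin. By these rules 1146 of 31743 kept nuclei were members, 627 of 16949 for AEVs and 519 of 14794 for PBS. The choice rests on measured levels of these 15 genes, which are given as description only.

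Both libraries came from wild-type C57BL/6 mice aged 6 to 8 weeks with a contusion at the thoracic level T10, made with a 5 g rod of 1 mm diameter dropped from 6 cm, and all mice also received antibiotics. The AEVs mice were injected into the tail vein on 5 days with athlete-derived extracellular vesicles, membrane particles shed by cells, at 100 µg of protein in 100 µL of phosphate-buffered saline, and the PBS mice with 100 µL of the saline alone. Cords were taken on day 7, and each group's 3 mice were pooled before 1 library was made. No uninjured cord and no second library of either group was analysed here, so a difference between AEVs and PBS has no replicate check, no p-value is given, and every interval printed is a 95% interval for counting error only.

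Protoplasmic astrocytes fill the grey matter, where their fine processes wrap synapses, take up glutamate and glycine, and clear potassium. Fibrous astrocytes of the white matter hold more Gfap and vimentin. After injury astrocytes near the lesion raise Gfap, metallothioneins and small heat shock proteins and take part in the border around the damaged tissue, so a low Gfap level can mark both a grey matter type and a less reactive state.

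The members held 1990264 UMIs in AEVs and 1894832 in PBS, and the median nucleus had 2849 UMIs from 1685 genes in AEVs and 3303 UMIs from 1781 genes in PBS. The nuclei that passed the same gates with 10 or more Gfap UMIs per 10000, called Gfap-high here, numbered 553 and 524, with median totals of 3077 and 3725 UMIs. The whole libraries held 81875882 UMIs over 17055 barcodes and 82953601 over 15325, and 170 barcodes were shared between the kept nuclei of both libraries, none of them among members. A doublet caller marked 53 AEVs members (8.45%) and 30 PBS members (5.78%), which were retained.

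Members made up 3.70% of kept AEVs nuclei (3.42 to 3.99%) and 3.51% of kept PBS nuclei (3.22 to 3.82%), a ratio of 1.05 (0.937 to 1.19), a difference that was not detectable at this depth. Among the nuclei that passed the astrocyte gates, 53.1% (50.2 to 56.0%) in AEVs and 49.8% (46.7 to 52.8%) in PBS were Gfap-low. No Gfap UMI at all was found in 291 AEVs members (46.4%) and 256 PBS members (49.3%). The Gfap threshold cuts a continuous range. The highest value inside it was 9.94 per 10000 in AEVs and 9.97 in PBS, and the lowest outside was 10.01 in AEVs and 10.02 in PBS. Between 8 and 10 lay 69 AEVs and 47 PBS members, and between 10 and 12 lay 74 AEVs and 52 PBS nuclei of the Gfap-high group. After each gated nucleus was thinned to 1000 UMIs, 45.5% of AEVs and 45.0% of PBS gated nuclei had no Gfap UMI.

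**Figure D1:**
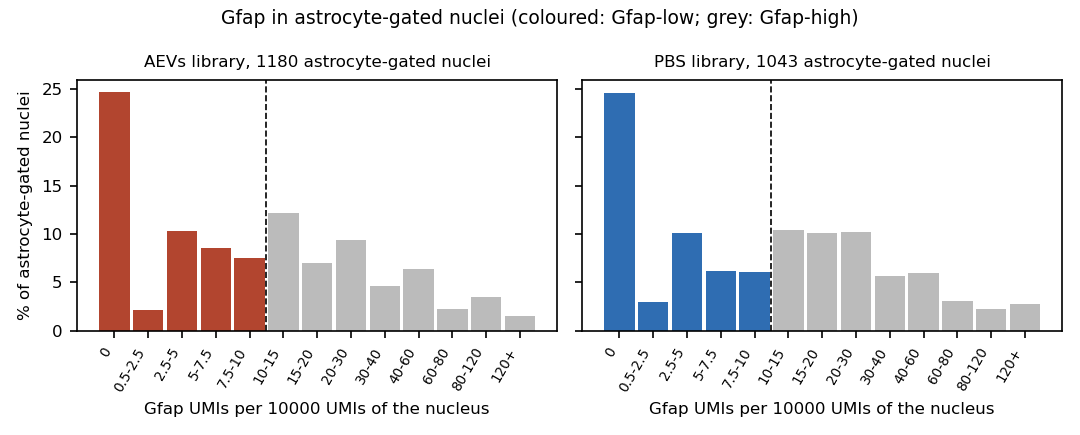
Gfap UMIs per 10000 UMIs in each astrocyte-gated nucleus, as the percent of gated nuclei per bin of unequal width, for AEVs and for PBS; the dashed line marks the value of 10 that splits Gfap-low from Gfap-high. The 2 libraries have similar shapes, with 291 AEVs and 256 PBS nuclei at 0 and no gap at the line.

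The label was checked with Slc7a10, the glycine and D-serine transporter Asc-1 of grey matter astrocytes, which is the marker that the rule did not use. It stood at 427 UMIs per 1000000 UMIs of the group (CPM) in AEVs members and 633 CPM in PBS members, 35.1-fold and 35.8-fold above the kept nuclei outside the astrocyte gates. A UMI of Slc7a10 was found in 56.8% of AEVs and 59.2% of PBS members, against 2.63% and 3.67% of the nuclei outside the gates, and at 1000 UMIs per nucleus in 35.5% and 40.9% of members, against 0.634% and 1.01% outside. The other markers proposed for these cells, Agt, Aqp4 and Slc1a2, belong to the rule. The precursor of angiotensin, Agt, and the water channel gene Aqp4 were lower in Gfap-low than in Gfap-high nuclei, with log2 ratios of -0.69 in AEVs and -1.52 in PBS for Agt and of -1.25 in AEVs and -1.51 in PBS for Aqp4. The glutamate transporter gene Slc1a2 gave -0.37 in AEVs and -0.59 in PBS. These ratios take in members with RNA of other cell types, described next. Without the nuclei over a limit for another type, Slc1a2 gave -0.15 in AEVs and -0.20 in PBS. Slc7a10 was higher in Gfap-low than in Gfap-high nuclei, with log2 ratios of 0.72 in AEVs and 0.48 in PBS. In members 22 Hox genes, which mark position along the trunk, were measured.

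Some Gfap-low members carried RNA of other cell types. More than 3 UMIs of the fibroblast genes Col1a1, Col1a2, Col3a1 and Dcn were found in 42 AEVs members (6.70%) and 93 PBS members (17.9%), against 17 (3.07%) and 32 (6.11%) of the Gfap-high nuclei. The same limit was passed for microglial genes in 31 AEVs (4.94%) and 31 PBS members (5.97%), for genes of oligodendrocyte precursors in 18 (2.87%) and 28 (5.40%), and for endothelial genes in 16 (2.55%) and 15 (2.89%). Summed over 10 fibroblast markers, the level was 926 CPM in AEVs and 2888 CPM in PBS members, with none of the 10 at 0 in either library. Leaving out every member over the limit for any of these types left 529 AEVs members (84.4%) and 376 PBS members (72.4%), called filtered members below. The limit does not remove every such nucleus: among filtered members were 62 of the 69 nuclei of the neurofilament-led cluster described next, 16 of 62 of the myeloid one, 16 of 23 of the Sema3d-led one and 12 of 46 of the precursor one. Filtered members were 3.12% of kept AEVs nuclei and 2.54% of kept PBS nuclei, a ratio of 1.23 (1.07 to 1.41). In them the fibroblast sum was 347 CPM in AEVs and 293 CPM in PBS, the microglial sum 281 and 232 CPM, the precursor sum 1049 and 1289 CPM and the endothelial sum 38.0 and 46.4 CPM. Whether a member over a limit was a doublet, an astrocyte with free RNA or a cell of another type was not tested. The main results and list medians are given for filtered members as well. For some named genes, among them Slc1a3, Glul, Sox9, Id4 and Mt3, no ratio in filtered members is given.

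Clustering of the members alone gave 9 clusters. Clusters 1 and 5, with 620 members (54.1%), were led by Gpc5, a surface proteoglycan gene of astrocytes, Kirrel3 and, in cluster 1, Slc7a10. They were picked as the clusters with both Gpc5 and Slc7a10 at least 2-fold above the median cluster, and are called Gpc5-led below. High levels of both genes there thus follow from the choice. Slc7a10 stood at 1019 CPM in cluster 1 and 803 CPM in cluster 5, and 609 of the 620 members (98.2%) were filtered members. Cluster 4, with 188 members, was led by Adamtsl1 and A2m and held 22.8% of AEVs members (19.6 to 26.3%) and 8.67% of PBS members (6.39 to 11.4%). Cluster 6, led by matrix genes, held 5.58% of AEVs and 15.8% of PBS members. Cluster 4 had Gfap at 509 CPM and the hyaluronan receptor gene Cd44 at 352 CPM, and all 10 ependymal markers checked were at least 2-fold above the median cluster. The remaining clusters were led by genes of other classes. Cluster 6 (117 members) was led by Col8a1, Itgbl1 and other matrix genes, cluster 3 (62 members) by the myeloid genes Ctss and C1qc, and cluster 8 (21 members) by the vessel genes Ly6c1 and Cldn5. Cluster 9 (46 members) was led by Adarb2 and the precursor genes Tnr and Vcan, cluster 7 (23 members) by Sema3d, and cluster 2 (69 members), with a median of 1161 UMIs, by the neurofilament genes Nefh, Nefm and Nefl. The members are therefore called here by their rule, since several clusters were led by genes of other cell types. The Gpc5-led clusters held 53.9% of AEVs and 54.3% of PBS members, and 62.2% and 57.6% when the members were clustered again without listed genes and genes past the fold threshold.

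**Figure D2:**
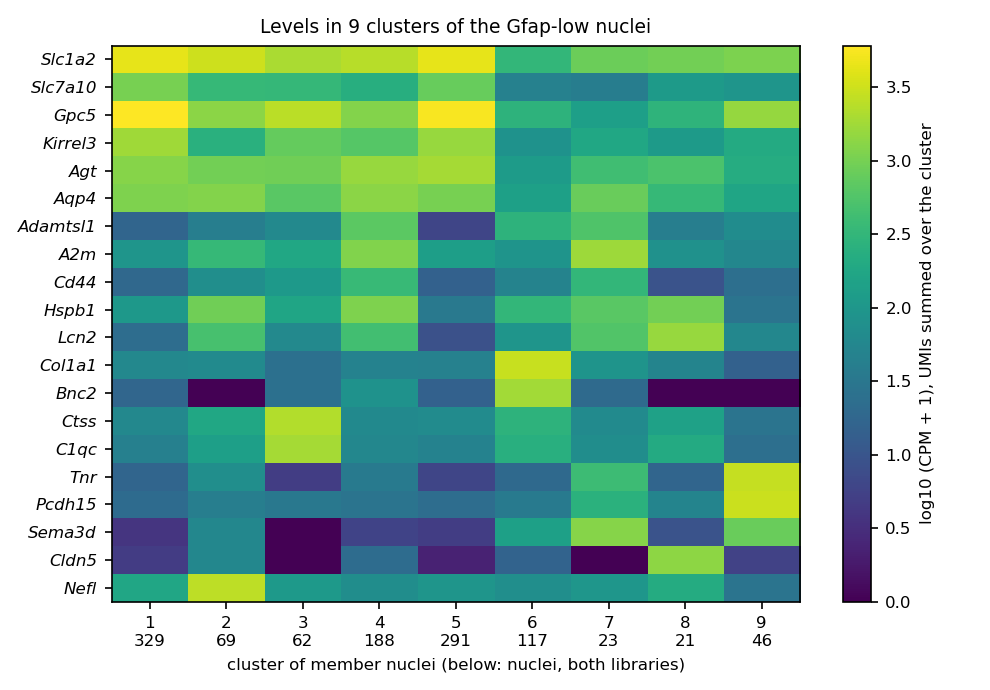
Level of named genes in each of the 9 clusters of Gfap-low members, on a log10 colour scale of CPM, with cluster numbers and the number of nuclei from both libraries under each column. Slc7a10 and Gpc5 are highest in clusters 1 and 5, which were picked by these genes. Cd44 and A2m are high in cluster 4 and in the 23 nuclei of cluster 7.

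Gfap-low nuclei were set against Gfap-high nuclei of the same library, so that each library gives its own ratio. A gene was counted when its level differed at least 1.5-fold the same way in both libraries and it reached 100 UMIs in all. Among all members 854 of 9898 genes were higher in Gfap-low (8.63%) and 494 lower (4.99%). Among filtered nuclei of both groups 525 of 8640 were higher (6.08%) and 605 lower (7.0%). Both groups come from the same 2 libraries and were split on Gfap, so the values below are a description of the split.

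Genes higher in filtered Gfap-low nuclei included a few of the grey matter type. Of 18 grey matter markers 11 were higher in both libraries, 3 of them at least 1.5-fold. Another 5 were lower in both, 1 of them at least 1.5-fold, and the medians were 0.31 in AEVs and 0.26 in PBS. Of all genes with at least 20 UMIs, 6.49% were at least 1.5-fold higher in both and 7.9% lower. The share of all genes higher in both at any fold is not given. Over all members, 8 of 19 markers were higher in both and 7 lower in both, 1 each at least 1.5-fold. The medians there were 0.25 for AEVs and -0.09 for PBS, so the higher PBS median was seen only after filtering. Before filtering, Gpc5 stood at 2939 CPM in Gfap-low and 1241 CPM in Gfap-high nuclei of the AEVs library, and at 3734 and 1488 CPM in those of the PBS library. Its log2 ratio in filtered nuclei was 1.48 (1.41 to 1.55) in AEVs and 1.65 (1.59 to 1.72) in PBS. Slc7a10 gave 1.03 (0.86 to 1.20) in AEVs and 0.85 (0.72 to 0.98) in PBS. Plcb1, a phospholipase that couples receptors to calcium release, gave filtered ratios of 1.46 in AEVs and 1.41 in PBS. Before filtering it had 2038 CPM in Gfap-low and 847 CPM in Gfap-high nuclei of AEVs and 2730 and 1289 CPM in those of PBS. The guanine nucleotide exchange factor gene Vav3 gave 1.61 in AEVs and 1.52 in PBS, the receptor gene Lgr6 1.67 and 1.51, and the ETS factor gene Etv4 1.44 and 2.11. Adarb2, Slc35f1, Tnr and Vcan also led, with filtered ratios for Adarb2 of 2.76 in AEVs and 2.62 in PBS. Beside them 9 of 9 measured precursor markers were higher in filtered Gfap-low nuclei of both libraries, 6 of them at least 1.5-fold (6.49% of all genes with at least 20 UMIs). Adarb2, Slc35f1, Tnr and Vcan were leading genes of cluster 9, of which 12 of 46 nuclei were filtered members. Adarb2, Slc35f1 and Vcan were also leading genes of cluster 7, of which 16 of 23 nuclei were filtered members. Of 10 precursor markers, 10 in cluster 9 and 8 in cluster 7 were at least 2-fold above the median cluster. Tnr stood at 2811 CPM in cluster 9 and 385 CPM in cluster 7, against 16.0 CPM in cluster 1 and 5.11 CPM in cluster 5.

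Genes lower in Gfap-low nuclei included those of fibrous and reactive astrocytes. Before filtering, S100a6, a calcium-binding protein gene, had 618 CPM in Gfap-low and 2133 CPM in Gfap-high nuclei of AEVs and 331 and 1025 CPM in those of PBS. In filtered nuclei its log2 ratios were -2.55 (-2.68 to -2.42) in AEVs and -2.59 (-2.81 to -2.38) in PBS. Hspb1, which encodes the small heat shock protein Hsp25, gave -2.11 in AEVs and -2.94 in PBS, the complement gene C3 -2.12 and -2.10, and the injury factor gene Cntf -2.07 and -2.66. Vimentin, Vim, gave -2.39 and -1.98. Of 12 white matter astrocyte genes 10 were at least 1.5-fold lower in both libraries among filtered nuclei, with medians of -1.11 in AEVs and -1.13 in PBS, and of 22 pan-reactive genes 18 were, with medians of -1.37 and -1.61, against 7.9% of all genes. Of 26 antioxidant and metal-binding genes 11 were lower by that rule. Of 19 clock genes 6 were higher, among them Rora, with ratios of 0.90 in AEVs and 0.91 in PBS.

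**Figure D3:**
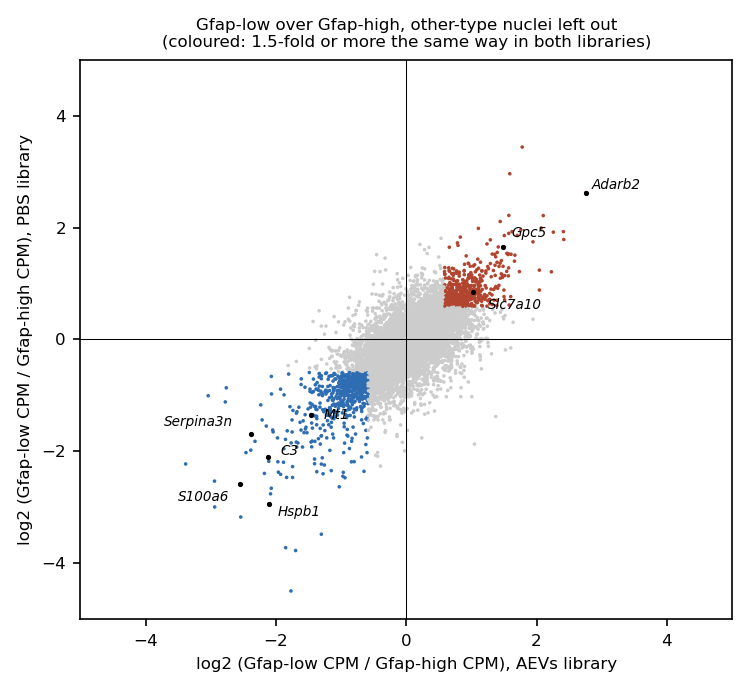
Log2 ratio of Gfap-low over Gfap-high nuclei, both without the nuclei over the limit of 3 UMIs for another cell type, AEVs library against PBS library, each point a gene. Colours mark genes at least 1.5-fold higher or lower the same way in both libraries, and black points with names are genes named in the text; 1 gene lies outside the axes. Gpc5 and Slc7a10 lie on the higher side of both libraries and S100a6, Hspb1 and C3 on the lower side of both.

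For AEVs against PBS within the members, UMIs were summed over the member nuclei of each library, and a gene was counted at a fold of 1.5 or more with a summed total of 100 UMIs or more. Of 7092 such genes 512 were higher in AEVs members (7.22%) and 403 lower (5.68%). Which direction held more genes depended on the scaling, with 403 higher and 486 lower under TMM factors and 444 higher and 453 lower with the median of all genes set to 0. In filtered members 444 of 5175 were higher (8.58%) and 173 lower (3.34%). Of the genes measured in both, 260 were counted higher in both, which is 71.8% of the 362 for all members and 58.6% of the 444 for filtered ones, and 90 were counted lower in both (49.2% of 183 and 52.0% of 173). In Gfap-high nuclei 272 of 7107 genes were higher (3.83%) and 290 lower (4.08%), and in the kept nuclei outside the gates 1703 of 17634 were higher (9.66%) and 664 lower (3.77%).

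The genes highest in AEVs members over PBS members, by a rule of size, were Slc2a4, Gpx3, Tmem52, Cirbp, Sult1a1, Tm4sf1, Cd109, Col5a3, Galnt15, Hspb1, Thbs3 and Arl4d. Slc2a4, which encodes the insulin-responsive glucose transporter GLUT4, had 42.7 CPM (34.1 to 52.8; 85 UMIs) in AEVs members and 7.92 CPM (4.43 to 13.1; 15 UMIs) in PBS members, a log2 ratio of 2.43 (1.63 to 3.33). Gpx3, a secreted glutathione peroxidase that removes peroxides, had 58.8 CPM (48.6 to 70.5) in AEVs and 11.1 CPM (6.86 to 16.9) in PBS, a log2 ratio of 2.41 (1.73 to 3.15). For both genes the intervals of AEVs and PBS did not overlap, though both were chosen for the size of their ratios. Cirbp, a cold-inducible RNA-binding protein, was found in 22.6% of AEVs and 6.94% of PBS members and had 87.4 CPM in AEVs and 20.1 CPM in PBS, a log2 ratio of 2.12 (1.61 to 2.67). Sult1a1, a phenol sulfotransferase, had 50.7 CPM in AEVs and 12.1 CPM in PBS (2.06, 1.40 to 2.79). Col5a3, a fibrillar collagen gene, had 60.8 CPM in AEVs and 15.8 CPM in PBS (1.94, 1.35 to 2.57), and Thbs3, a thrombospondin gene, 60.8 and 16.9 CPM (1.85, 1.28 to 2.46).

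All 12 were at least 1.5-fold higher in filtered members and in the Gpc5-led clusters too. Both sets are parts of the members in which the 12 were chosen, so this is a description and not a separate check. In the Gpc5-led clusters 9.56% of 3609 genes were at least 1.5-fold higher and 4.41% lower. Some of the 12 had few UMIs there, such as Galnt15 with 7 UMIs in AEVs and 3 in PBS. Outside the members, 10 of the 12 were at least 1.5-fold higher in AEVs among Gfap-high nuclei, and 11 of 12 among the nuclei outside the gates. Most of these genes were thus higher in AEVs outside the members as well. For Cirbp the log2 ratio was 1.62 in Gfap-high nuclei and 1.57 outside the gates, and for Slc2a4 it was 1.05 and 1.16. Cd109, which encodes a membrane protein that binds transforming growth factor beta, had 105 CPM (90.8 to 120) in AEVs members and 25.3 CPM (18.7 to 33.6) in PBS members, a log2 ratio of 2.04 (1.59 to 2.53), against 0.30 (0.02 to 0.57) in Gfap-high nuclei and 0.65 outside the gates. Tm4sf1, a tetraspanin-like membrane protein, gave 2.06 in members, 1.46 in filtered members, 0.86 (-0.70 to 2.58) in the Gpc5-led clusters and -0.43 in Gfap-high nuclei. It had a UMI in 12.8% of AEVs and 12.3% of PBS members. Cluster 4 held Tm4sf1 at 445 CPM and Cd109 at 183 CPM, against 10.3 and 11.3 CPM in cluster 1 and 7.66 and 10.2 CPM in cluster 5. Tm4sf1 was higher still in cluster 8, at 556 CPM, and Cd109 in cluster 7, at 269 CPM.

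The genes lowest in AEVs members were Sfrp4, Nr4a2, Col1a1, Gxylt2, Fam180a, Cxadr, Efemp1, Mndal, Egr1, Slc6a20a, Btg2 and Nr4a1. Collagen I, Col1a1, had 88.4 CPM (75.8 to 103) in AEVs and 814 CPM (774 to 855) in PBS members, a log2 ratio of -3.20 (-3.44 to -2.98), against -0.08 (-0.68 to 0.53) in filtered members, which were chosen on this gene. The secreted Wnt antagonist gene Sfrp4 had 7.54 CPM in AEVs and 87.6 CPM in PBS members (-3.54, -4.41 to -2.78), but 3 UMIs in AEVs and 5 in PBS in filtered members. Both lie beside the fibroblast sum of 926 CPM in AEVs and 2888 CPM in PBS members and 260 CPM in AEVs and 478 CPM in PBS outside the gates. Of the 12 genes, 9 were still at least 1.5-fold lower in filtered members and 3 in the Gpc5-led clusters. The amino acid transporter gene Slc6a20a, at 19.6 CPM in AEVs and 102 CPM in PBS members, gave -2.38 (-2.91 to -1.88) in members and -2.29 (-3.53 to -1.21) in filtered ones, against 0.54 in Gfap-high nuclei and 0.47 (-1.40 to 2.47) in the Gpc5-led clusters.

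**Figure D4:**
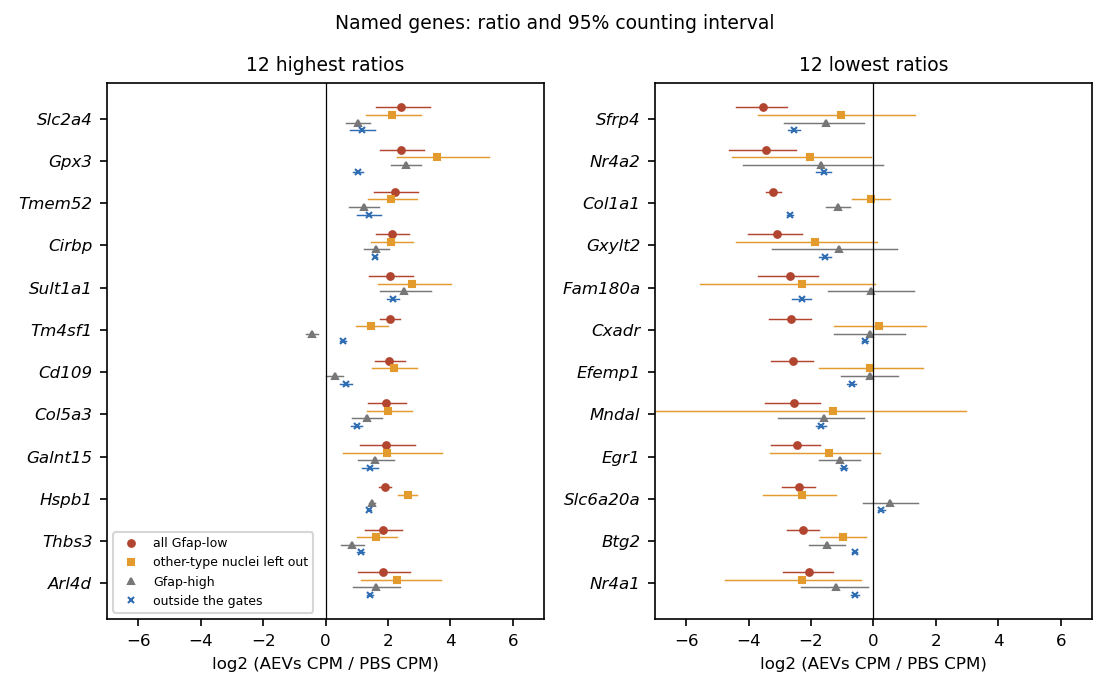
Log2 ratio of AEVs over PBS for the 12 genes highest and the 12 lowest by the naming rule, with 95% counting intervals, in all members and beside it in filtered members, Gfap-high nuclei and nuclei outside the gates. The 12 higher genes keep values above 0 in filtered members, while Col1a1, Cxadr and Efemp1 lie near 0 there.

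When the same rule was applied to filtered members, Txnip, Nupr1, Inhba and Zfas1 also ranked among the 12 highest. Txnip, an inhibitor of thioredoxin and of glucose uptake, had 66.4 CPM (53.9 to 81.0) in AEVs and 14.9 CPM (8.84 to 23.6) in PBS, a log2 ratio of 2.16 (1.42 to 2.97). Nupr1, a stress-induced chromatin protein gene, gave 2.05 (1.21 to 3.00) in filtered members and 0.09 (-0.29 to 0.48) in all members. The lowest were led by C1ql1, a secreted synapse organiser, at -2.06, St8sia5 at -1.64, Sema3d at -1.39 and Rdh5 at -1.30. The 12 lowest also held the neurofilament genes Nefh and Nefl. C1ql1 and Sema3d were among the leading genes of cluster 7, with 6 AEVs and 17 PBS members, 16 of the 23 being filtered members. Sema3d stood at 1224 CPM in cluster 7, 840 CPM in cluster 9 and 141 CPM in cluster 6, against 2.82 CPM in cluster 1 and 3.83 CPM in cluster 5. The part of cluster shares in these ratios was not tested.

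For gene lists, the genes with at least 20 UMIs were counted, beside 12583 genes of which 55.3% lay above a ratio of 1, 12.2% were at least 1.5-fold higher and 8.85% at least 1.5-fold lower in AEVs members, with a median log2 ratio of 0.05. In filtered members these were 59.4%, 15.1% and 6.22% of 11069 genes, with a median of 0.10. In Gfap-high nuclei 9.18% were at least 1.5-fold higher and 7.89% lower, and outside the gates 13.2% and 5.82%.

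Of 26 antioxidant and metal-binding genes, 22 were higher in AEVs members, 8 of them at least 1.5-fold, and 1, the ferroxidase gene Cp, was at least 1.5-fold lower. The median was 0.39, against 0.37 in filtered members, 0.28 in Gfap-high nuclei and 0.20 outside the gates. Metallothioneins bind zinc and copper through cysteines and buffer oxidants. Mt1 had 4148 CPM (4059 to 4238) in AEVs members and 2228 CPM (2161 to 2296) in PBS members, a log2 ratio of 0.90 (0.84 to 0.95), which was 0.68 in filtered members, 0.73 in Gfap-high nuclei and 1.06 outside the gates. Mt2 had 2245 CPM in AEVs and 1264 CPM in PBS members (0.83, 0.76 to 0.90). Mt3, the form enriched in brain and cord, had 1150 CPM in AEVs and 798 CPM in PBS members (0.53, 0.43 to 0.62), against 0.03 (-0.03 to 0.09) in Gfap-high nuclei. Mt1 and Mt2 were thus higher in every group of nuclei set beside the members, and Mt3 differed little in Gfap-high nuclei. The detoxifying genes Hmox1, with 60 UMIs in AEVs and 14 in PBS members (2.03, 1.17 to 2.98), Nqo1, with 40 and 13 (1.55, 0.62 to 2.58), and Gstm1, with 698 and 317 (1.07, 0.87 to 1.26), gave the highest ratios of the list. Gstm1 has close paralogs whose reads can be hard to part from it.

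The promoter windows of Mt1, Mt2, Mt3 and Hspb1 are shown because Mt1, Mt2 and Hspb1 were at least 1.5-fold higher in AEVs members and Mt3 is a relative of the first pair. Each runs from 250 bases before to 50 after the RefSeq gene start on the plus strand of GRCm38.p6, at chr8:94178839-94179138 for Mt1, chr8:94172368-94172667 for Mt2, chr8:94152357-94152656 for Mt3 and chr5:135887669-135887968 for Hspb1. Capitals mark the metal response core TGCACNC or TGCGCNC on either strand in the Mt genes and the heat shock inverted repeat GAANNTTC in Hspb1.
Mt1: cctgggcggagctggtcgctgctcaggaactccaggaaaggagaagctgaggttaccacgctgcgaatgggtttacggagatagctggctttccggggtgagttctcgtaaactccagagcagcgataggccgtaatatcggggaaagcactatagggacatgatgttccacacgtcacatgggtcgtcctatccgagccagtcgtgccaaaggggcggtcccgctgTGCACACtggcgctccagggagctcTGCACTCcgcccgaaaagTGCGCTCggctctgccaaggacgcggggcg
Mt2: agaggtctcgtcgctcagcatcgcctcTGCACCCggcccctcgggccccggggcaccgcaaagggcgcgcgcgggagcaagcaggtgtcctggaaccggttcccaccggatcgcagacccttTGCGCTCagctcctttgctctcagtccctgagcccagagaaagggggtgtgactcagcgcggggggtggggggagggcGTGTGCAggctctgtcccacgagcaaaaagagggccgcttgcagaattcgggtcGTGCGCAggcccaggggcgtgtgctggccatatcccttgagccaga
Mt3: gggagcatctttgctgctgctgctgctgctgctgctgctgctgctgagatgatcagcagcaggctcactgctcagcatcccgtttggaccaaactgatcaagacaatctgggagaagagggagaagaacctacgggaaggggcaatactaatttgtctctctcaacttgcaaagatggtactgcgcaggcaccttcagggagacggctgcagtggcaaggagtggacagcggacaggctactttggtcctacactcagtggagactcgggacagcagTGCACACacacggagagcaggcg
Hspb1: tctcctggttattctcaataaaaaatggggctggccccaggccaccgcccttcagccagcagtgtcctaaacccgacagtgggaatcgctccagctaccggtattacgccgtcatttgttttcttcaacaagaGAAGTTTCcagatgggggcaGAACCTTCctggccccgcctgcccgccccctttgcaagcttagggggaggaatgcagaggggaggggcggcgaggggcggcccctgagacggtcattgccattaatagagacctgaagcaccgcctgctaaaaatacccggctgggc
The metal response core occurred 3 times in the Mt1 window, 4 times in Mt2 and 1 time in Mt3, and in 25.7% of 32851 promoter windows of the same length. All but the first match in Mt1, the last match in Mt2 and the sole match in Mt3 lay after the gene start. The heat shock repeat occurred 2 times in the Hspb1 window and in 7.86% of all windows. A match is a description of these letters and was not tested as a binding site.

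Hspb1 itself, a chaperone gene of stressed and reactive astrocytes, had 554 CPM (522 to 588) in AEVs and 147 CPM (130 to 166) in PBS members, a log2 ratio of 1.91 (1.72 to 2.11). It was 2.63 (2.33 to 2.94) in filtered members, 2.08 (1.45 to 2.75) in the Gpc5-led clusters, 1.49 in Gfap-high nuclei and 1.39 outside the gates. Averaged over nuclei in place of UMIs it was 1.43. Its level was 1113 CPM in cluster 4, against 104 CPM in cluster 1 and 33.2 CPM in cluster 5. Clusters 8, 2 and 7 held it at 932, 919 and 660 CPM. Of 16 heat and cold stress genes, 6 were higher and 10 lower, with a median of -0.17, against -0.02 in filtered members. Beside Hspb1 and Cirbp the cold-inducible Rbm3, with 172 CPM in AEVs and 73.4 CPM in PBS members, gave 1.23 (0.94 to 1.53), while the chaperone gene Hsph1 gave -0.63.

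Of 28 measured genes that glucocorticoids are known to induce, 19 were higher in AEVs members, 11 at least 1.5-fold, and 2 at least 1.5-fold lower, with a median of 0.49. The median was 0.43 in filtered members, 0.61 in Gfap-high nuclei and 0.71 outside the gates, where 16 of 31 were at least 1.5-fold higher, so the list stood above the median of all genes in each group of nuclei. Cebpb, a transcription factor gene of the acute phase, had 40.7 CPM in AEVs and 12.1 CPM in PBS members (1.75, 1.06 to 2.48). The kinase gene Sgk1 had 115 CPM in AEVs and 55.9 CPM in PBS members (1.04, 0.70 to 1.39). Members of the list differed in direction: the zinc finger gene Zbtb16 had 210 CPM in AEVs and 308 CPM in PBS members (-0.55, -0.74 to -0.37), and it was below 0 in filtered members (-0.69), Gfap-high nuclei (-0.71) and outside the gates (-0.45) as well. Fkbp5, a chaperone of the glucocorticoid receptor, gave 0.27 (0.10 to 0.45) in members and 0.80 (0.56 to 1.04) in Gfap-high nuclei.

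Of 18 measured immediate early genes, which respond to activity and stress within minutes, 15 were lower in AEVs members, 12 at least 1.5-fold, with a median of -1.46. Nr4a2 had 4.52 CPM in AEVs and 49.6 CPM in PBS members, Egr1 9.04 CPM and 49.6 CPM, and Fos 21.6 CPM (15.6 to 29.1) and 88.1 CPM (75.3 to 103). In filtered members 10 of the genes were measured, 6 were higher and 4 lower in AEVs, and the median was 0.24. There Fos had 11.5 CPM in AEVs and 28.2 CPM in PBS (-1.29, -2.22 to -0.41), while the transcription factor gene Junb gave 0.62 (-0.30 to 1.59) and the phosphatase gene Dusp1 0.22 (-0.54 to 1.00). The median below 0 over all members was not kept without the nuclei over the limit of 3 UMIs, where fewer genes are measured. Gfap-high nuclei gave a median of -0.58 and nuclei outside the gates -0.42.

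Of 29 measured interferon-response genes, 17 were higher in AEVs members, 7 at least 1.5-fold, and the median was 0.23. In filtered members 23 of 26 were higher, 11 at least 1.5-fold and 0 at least 1.5-fold lower, with a median of 0.51. The median was 0.43 in Gfap-high nuclei and 0.50 outside the gates, where 28 of 30 were higher, beside 62.0% of all genes there. The transcription factor genes Irf7, with 26 UMIs in AEVs and 11 in PBS members (1.17, 0.10 to 2.34), and Irf9, with 88 and 39 (1.10, 0.54 to 1.69), led, and Irf1 gave -0.68 from 21 UMIs in AEVs and 32 in PBS. Of 11 antigen presentation genes, 6 were higher and 3 at least 1.5-fold lower, with a median of 0.05. In filtered members 7 of 9 were higher, with a median of 0.43, and in the Gpc5-led clusters 7 of 7, with a median of 0.51. Of all 9513 genes with at least 20 UMIs in those clusters 58.1% were higher, with a median of 0.10. The 3 lower ones were the class II genes H2-Eb1, H2-Aa and Cd74, which myeloid cells carry.

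Among genes of reactive astrocytes, 11 of 21 pan-reactive genes were higher and 10 lower in AEVs members, with a median of 0.11, and 15 of 20 were higher in filtered members, with a median of 0.44. In the Gpc5-led clusters 12 of 15 were higher, with a median of 0.72, beside 58.1% of all genes and a median of 0.10. In Gfap-high nuclei 11 of 22 were higher, with a median of 0.001. Lcn2, the secreted siderophore binder lipocalin 2, had 246 CPM in AEVs and 124 CPM in PBS members (1.00), S100a6 618 and 331 CPM (0.90), and Cd44 126 and 62.3 CPM (1.02). C3 was lower, at 68.3 CPM in AEVs and 111 CPM in PBS (-0.70). Of 7 measured genes of the A2 list, named for reactive astrocytes after ischaemia, 6 were higher, 4 of them at least 1.5-fold, with a median of 0.69, against 0.04 in Gfap-high nuclei and 0.30 outside the gates. In filtered members 5 of 5 were higher, with a median of 1.65. Ptx3, a secreted pentraxin of innate immunity, had 80 UMIs in AEVs and 10 in PBS members (2.93, 1.98 to 4.04), against 0.84 in Gfap-high nuclei. Several of these genes stood higher in cluster 4, which holds more AEVs than PBS members, than in clusters 1 and 5. Ptx3 stood at 104 CPM in cluster 4, against 11.3 CPM in cluster 1 and 0 in cluster 5. Cd44 stood at 352 CPM in cluster 4, against 17.9 and 14.1 CPM, and Lcn2 at 439 CPM, against 21.6 and 7.66 CPM. Other clusters held them too, with Cd44 at 321 CPM in cluster 7. Lcn2 was higher still in clusters 8 (1586 CPM), 7 (577 CPM) and 2 (479 CPM). Within the Gpc5-led clusters Cd44 gave 0.37 (-0.76 to 1.53), Lcn2 1.14 (-0.07 to 2.45) and S100a6 1.42 (0.93 to 1.93), and Ptx3 had 12 UMIs in AEVs and 0 in PBS. The part of cluster shares in the ratios over all members was not tested. Of 10 genes of the A1 list, 7 were higher, 0 at least 1.5-fold, and 2 at least 1.5-fold lower, with a median of 0.09. In filtered members 9 of the 10 were higher, 4 at least 1.5-fold, with a median of 0.49, as in Gfap-high nuclei (8 of 10, 4 at least 1.5-fold, median 0.49).

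**Figure D5:**
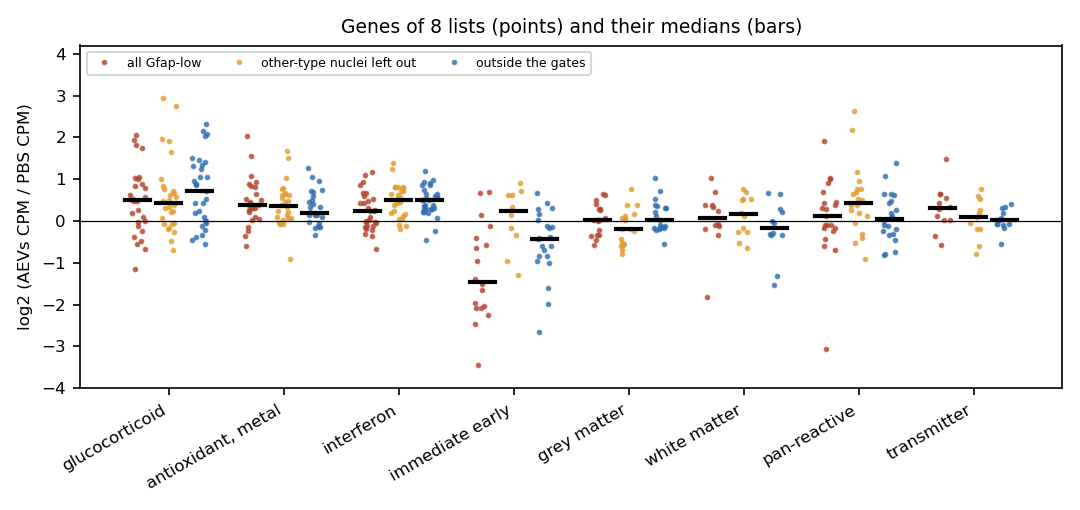
Log2 ratio of AEVs over PBS CPM for each measured gene of 8 lists (points), in all Gfap-low members, in filtered members (drawn as other-type nuclei left out) and in nuclei outside the gates, with the median of each as a black bar and a thin line at 0. The glucocorticoid and antioxidant medians lie at 0.49 and 0.39 in all members, and the immediate early median at -1.46 in all members and 0.24 in filtered ones.

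Genes of grey matter functions lay on both sides of a ratio of 1. Of 18 grey matter markers 12 were higher and 6 lower in AEVs members, with a median of 0.03, and 2 were at least 1.5-fold higher and 0 at least 1.5-fold lower. In filtered members 8 were higher and 10 lower, 3 of these at least 1.5-fold, with a median of -0.20, and the Gpc5-led clusters gave the same counts with a median of -0.14. Slc7a10 had 427 CPM (399 to 457) in AEVs and 633 CPM (598 to 670) in PBS members, a log2 ratio of -0.57 (-0.70 to -0.44). It was below 0 in filtered members (-0.78), in the Gpc5-led clusters (-0.67), in Gfap-high nuclei (-0.81) and outside the gates (-0.54). Gpc5 had 2939 CPM in AEVs and 3734 CPM in PBS members (-0.35), and the potassium channel gene Kcnj10 255 and 348 CPM (-0.45). The glutamate transporter gene Slc1a3 was on the other side, at 571 CPM (539 to 605) in AEVs and 366 CPM (340 to 395) in PBS members (0.64, 0.50 to 0.78), against 0.30 in Gfap-high nuclei and 0.03 outside the gates. Glul, the glutamine synthetase that turns glutamate to glutamine, had 839 CPM in AEVs and 534 CPM in PBS members (0.65, 0.54 to 0.77), against 0.33 and 0.18. Slc1a3 stood at 817 CPM in cluster 4, which held more AEVs than PBS members. It stood at 347 CPM in cluster 1, 688 CPM in cluster 5 and 384 CPM in cluster 6. The part of cluster shares in these ratios was not tested. Of the 12 transmitter uptake genes measured, 10 were higher, 3 at least 1.5-fold, with a median of 0.30, which was 0.09 in filtered members. Agt, a gene of the rule, had 1610 CPM in AEVs and 611 CPM in PBS members (2.63-fold), and its log2 ratio was 1.17 in filtered members, 0.56 in Gfap-high nuclei and 0.86 outside the gates. Agt UMIs count toward the gate, and their part in membership was not tested.

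Secreted and lipid genes differed gene by gene. Of 29 genes of synapse formation and secreted factors 11 were higher and 18 lower, 7 at least 1.5-fold, with a median of -0.29 in members and -0.08 in filtered members. Sparc, a matrix protein that counters synapse formation, had 3402 CPM (3321 to 3484) in AEVs and 1951 CPM (1888 to 2014) in PBS members (0.80, 0.74 to 0.86), and its ratio was 1.09 in filtered members, 0.80 in Gfap-high nuclei and 0.21 outside the gates. The axon guidance gene Slit2 had 97.5 CPM in AEVs and 241 CPM in PBS members (-1.31), against -0.37 in filtered members. Of 31 cholesterol and lipid genes 16 were higher, with a median of 0.01, against -0.10 in filtered members. Apoe, the lipid carrier apolipoprotein E, had 9850 CPM in AEVs and 6213 CPM in PBS members (0.66), and its ratio was 0.45 in Gfap-high nuclei and 0.52 outside the gates.

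Transcription factor genes of astrocyte identity had a median of -0.02 over 21 genes, 10 higher and 11 lower, 4 of them at least 1.5-fold higher. In filtered members 7 were higher and 14 lower, 2 of them at least 1.5-fold higher, with a median of -0.17. Sox2, a factor of neural progenitors and glia, had 137 CPM (121 to 154) in AEVs and 71.2 CPM (59.7 to 84.3) in PBS members (0.94, 0.64 to 1.25), with a ratio of 0.67 in filtered members, 0.12 in Gfap-high nuclei and -0.39 outside the gates. Sox9, which directs glial fate, had 151 and 96.1 CPM (0.65). Of 36 targets of signalling pathways, 24 were lower and 12 higher, with a median of -0.19, while in filtered members 17 were lower and 15 higher, with a median of -0.04. Id4, a target of bone morphogenetic protein signals, had 289 CPM in AEVs and 110 CPM in PBS members (1.40, 1.17 to 1.63), against 0.48 in Gfap-high nuclei and 0.80 outside the gates.

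The medians in AEVs over PBS members were 0.08 for 12 white matter markers (0.16 in filtered members), -0.06 for 18 potassium, water and coupling genes (-0.11), 0.12 for 31 receptors and calcium genes (-0.01), 0.02 for 25 genes of energy metabolism (-0.07) and 0.10 for 19 clock genes (0.12). They were 0.16 for 15 genes of dorsoventral position (0.35), -0.04 for 22 Hox genes (-0.01) and -0.57 for 9 cell cycle genes, against 0.32 in filtered members. The lowest of the last list, Top2a, had 4 UMIs in AEVs and 28 in PBS members.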

How the data were processed

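Nuclei were isolated from frozen cord, and 3-prime libraries were made with a SeekOne DD droplet kit, per the labels' protocols. The deposited values are the authors' UMI counts, unscaled, for every gene in every barcode. The submitters' processing notes name mm10 and Seurat, and the aligner is not given in the sources used here. Nuclei were kept with at least 500 UMIs, at least 300 genes and under 5% mitochondrial UMIs. Counts were summed over members per library and divided by the group's total to give CPM. Intervals are exact (Poisson for levels, conditional binomial for ratios, Clopper-Pearson for shares), at 95%, and a count of 0 was replaced by 3 counts in ratios. They cover counting error only. Ratios are AEVs over PBS or Gfap-low over Gfap-high.

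Named genes are the 12 highest and 12 lowest that in the library with the higher level reached 50 UMIs and 5% of members, with a level of at least 0.5 of that outside the gates, and per list the 3 highest and 3 lowest with at least 20 UMIs. For Gfap-low over Gfap-high they are the 10 highest and 10 lowest by the smaller ratio of both libraries. Genes of the rule, mitochondrial, ribosomal protein, hemoglobin and predicted genes were left out. Some named genes fall outside this rule and were chosen after their values were seen: Mt1, Mt2, Mt3, Sgk1, Fkbp5, Fos, Junb, Cebpb, Pax6, Aldh1a1, Adamtsl1, A2m, Gpc5 and genes that lead clusters. The rule was also applied to filtered members. The members and lists were chosen with earlier results of these data known. Doublets were called with Scrublet in scanpy 1.11.5, clusters made with the Leiden method in igraph 0.11.9 on 2000 variable genes, and TMM factors taken from edgeR 4.0.16. The fold rule for AEVs over PBS and its interval were tested on simulated summed counts with counting error only. The gates, the Gfap split, filtering and clustering were not tested in this way. Coordinates of promoters come from RefSeq.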

Additional observations from a re-analysis of the deposited data

Results flagged for a closer look

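For 6 named genes the AEVs over PBS log2 ratio lay on one side of 0 in Gfap-low members and on the other in Gfap-high nuclei, with counting intervals that leave out 0 in both. The difference itself was not tested for any of them, since each group has 1 library. Tm4sf1 gave 2.06 (1.74 to 2.39) in Gfap-low members and -0.43 (-0.62 to -0.23) in Gfap-high nuclei. Hes5, a Notch target gene, gave 1.77 (0.82 to 2.83) from 43 UMIs in AEVs and 12 in PBS members, and -1.29 (-2.05 to -0.57) in Gfap-high nuclei. Gabbr2, a subunit of the GABA-B receptor, gave 0.53 (0.10 to 0.97) in Gfap-low members and -0.67 (-1.09 to -0.26) in Gfap-high nuclei. Ptgds, a prostaglandin synthase gene of meninges and oligodendrocytes, gave -1.19 (-1.26 to -1.11) in Gfap-low members and 0.43 (0.33 to 0.52) in Gfap-high nuclei, and 0.56 in filtered members. The interleukin 1 receptor gene Il1r1 gave -0.48 (-0.91 to -0.06) in Gfap-low members and 0.87 (0.25 to 1.51) in Gfap-high nuclei, and -0.05 in filtered members, from 13 UMIs in AEVs and 11 in PBS. Zic1, a zinc finger gene of dorsal cord and meninges, gave -0.56 in Gfap-low members, with 77 UMIs in AEVs and 108 in PBS, and 0.96 in Gfap-high nuclei, with 63 and 34, and 0.64 in filtered members. The last 3 thus lost the negative ratio or came near 0 when nuclei over the limit of 3 UMIs for another cell type were left out.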

How the results depend on the processing

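No paired analysis was possible because each group has 1 library. Results were recomputed with a stricter nucleus filter, without doublet calls, at Gfap thresholds of 5 and 20, at an astrocyte gate of 10 UMIs, in filtered members alone, with nuclei thinned to 1000 UMIs, with TMM scaling, with means over nuclei and, chosen after seeing the data, in the Gpc5-led clusters alone. The ratio of member shares moved to 1.19 at the gate of 10 UMIs and to 1.23 in filtered members. The Gfap-low share of gated nuclei was 63.8% in AEVs and 61.8% in PBS with the stricter filter and 45.5% and 45.0% after thinning, and in PBS 46.2% at the gate of 10 and 44.6% in filtered members. The 512 genes higher in AEVs members became 171 after thinning, 80 at a fold of 2, 917 with at least 50 UMIs and 250 with at least 200. The 403 lower genes became 146, 126, 668 and 220 in the same order, and 202 at the gate of 10, 173 in filtered members and 159 in the Gpc5-led clusters, where 15 of the 24 named genes kept a 1.5-fold difference. For Gfap-low over Gfap-high, 401 genes were higher and 303 lower after thinning, 1564 and 860 for nuclei under 5 against 20 or more Gfap UMIs per 10000, and 288 and 132 at a fold of 2, and 525 were higher in filtered members. The immediate early median turned to 0.24 in filtered members and 0.49 in the Gpc5-led clusters, Nefh turned to 0.19 with the stricter filter and 0.085 in the Gpc5-led clusters, and Ecrg4 turned to 0.21 at the gate of 10. Over the other list medians 258 values moved little and 16 moved more, and over single genes 442 and 123. The interferon median was -0.08 at the Gfap threshold of 5. TMM scaling shifted log2 ratios by -0.05 and gave 403 higher and 486 lower genes; setting the median of all genes to 0 gave 444 and 453. The cause of these changes was not tested. Depth limits genes of few UMIs, such as Irf7, whose log2 interval ran from 0.10 to 2.34.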

Other observations

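The members of the cluster led by Adamtsl1, a secreted matrix protein gene, and A2m, a protease inhibitor gene, took different shares of the libraries. When members were clustered without listed genes and genes past the fold threshold, the cluster with the highest Adamtsl1 level held fewer AEVs members than cluster 4 of the first clustering, which had 143 of 627 AEVs members (22.8%, 19.6 to 26.3%) and 45 of 519 PBS members (8.67%, 6.39 to 11.4%). The later cluster held 92 of 627 AEVs members (14.7%, 12.0 to 17.7%) and 49 of 519 PBS members (9.44%, 7.07 to 12.3%), and 106 nuclei were in such a cluster in both clusterings. The intervals of AEVs and PBS were apart in the first clustering, whose genes include some that differ between the libraries, and overlapped in the other, and no difference between the libraries was tested. Ependymal markers summed to 111 CPM in AEVs and 55.4 CPM in PBS members, against 75.1 and 83.2 CPM in Gfap-high nuclei, and their part in this share was not tested.

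Dorsoventral position genes were read by few UMIs. Pax6, a factor of ventral and intermediate progenitor territories, had 114 UMIs in AEVs and 70 in PBS members (log2 ratio 0.63), and Nkx6-2 had 40 and 21 (0.86). The posterior gene Hoxd9 had 9 UMIs in AEVs and 20 in PBS members, and Hoxa7 had 158 and 102 (0.56).

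Aldh1a1, which makes retinoic acid, gave a log2 ratio of -0.76 in members and -0.96 in filtered members, with a UMI in 61.7% of AEVs and 70.1% of PBS members, against 7.79% and 9.74% outside the gates.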
